A study of Mus musculus with 4 samples.

Results

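Sox2, Sox1, Sox3 and Sox21, the SoxB genes measured here, encode transcription factors of stem cells and the early nervous system. They were found as the probes that the array files name Sox1, Sox2, Sox3, Sox14 or Sox21. This gave 140 probes at 4 of the 5 genes, out of 474380 probes and 17649 promoters, and Sox14 was not analysed here. Ring1B at these promoters was read by ChIP-on-chip, in which DNA pulled down with a Ring1B antibody is hybridised to an array. The samples were embryonic fibroblasts of the mouse, homozygous for Phc2 L307R (labelled Phc2 L307R/L307R) or wild type. Cells of both genotypes were of the C57BL/6 strain, came from embryos of day 12.5 and were used at passage 2. Immunoprecipitated DNA was read in Cy5 and input DNA in Cy3 after amplification by T7 RNA polymerase, in both genotypes. The sources used here do not say how many embryos stood behind each array. Sox2 and Sox1 lie on array design 1 and Sox3 and Sox21 on array design 2, with 1 array per genotype on each design and 0 probes shared between the designs. Each SoxB promoter was therefore measured once per genotype. Error between cultures is unknown, and p-values are not given.

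Sox proteins bind DNA through an HMG box. Sox1, Sox2 and Sox3 form the SoxB1 group, which keeps neural progenitors undifferentiated, and Sox2 is also a core factor of pluripotent cells. Sox21 and Sox14 form the SoxB2 group, and in the chick Sox21 promotes neuronal differentiation. Polycomb repressive complex 1 (PRC1), in which Ring1B is the ubiquitin ligase for histone H2A, holds such lineage genes silent in cells of other kinds, mostly at CpG-rich promoters. Phc2, another subunit of PRC1, polymerises through its SAM domain, where the L307R change lies. The study's title links this polymerisation to PRC1 clustering and silencing, so the question here was how much Ring1B the SoxB promoters hold when Phc2 is altered.

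Because CpG-rich promoters are where PRC1 is mostly found, the 250 bases before the start of Sox2, Sox1 and Sox21 are shown, with each CG in capitals. They are RefSeq promoters of build GRCm38.p6, printed in the direction of transcription. Sox2 lies on the plus strand at chr3:34649745-34649994, Sox1 on the plus strand at chr8:12395269-12395518 and Sox21 on the minus strand at chr14:118237031-118237280.
Sox2: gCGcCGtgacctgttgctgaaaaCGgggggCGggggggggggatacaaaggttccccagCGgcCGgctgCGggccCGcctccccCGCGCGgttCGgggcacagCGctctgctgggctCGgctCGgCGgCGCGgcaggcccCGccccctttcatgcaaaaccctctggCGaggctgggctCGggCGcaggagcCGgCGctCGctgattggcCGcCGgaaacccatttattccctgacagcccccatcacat
Sox1: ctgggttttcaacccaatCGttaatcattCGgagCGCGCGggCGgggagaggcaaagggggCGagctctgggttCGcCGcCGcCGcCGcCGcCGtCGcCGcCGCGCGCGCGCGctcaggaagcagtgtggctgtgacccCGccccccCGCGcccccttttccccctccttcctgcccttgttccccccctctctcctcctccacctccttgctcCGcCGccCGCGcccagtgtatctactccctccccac
Sox21: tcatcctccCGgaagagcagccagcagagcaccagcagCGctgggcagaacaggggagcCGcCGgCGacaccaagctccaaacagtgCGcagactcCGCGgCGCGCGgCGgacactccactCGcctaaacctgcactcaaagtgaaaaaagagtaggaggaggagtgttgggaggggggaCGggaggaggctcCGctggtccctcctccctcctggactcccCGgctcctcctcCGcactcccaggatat
The motif searched was CG, which reads the same on both strands. The Sox2 stretch holds 27 CG, and 8.56% of 32851 RefSeq promoters of this length hold at least as many. The Sox1 stretch holds 29 CG, a number reached by 6.78% of promoters. The Sox21 stretch holds 17 CG, a number reached by 23.5%. The median over all promoters was 6, so all 3 stretches were richer in CG than most, and their GC content was 72.0% at Sox2, 71.2% at Sox1 and 65.2% at Sox21. The probe positions below are those of the files. The sources used here do not name their genome build, so the probes cannot be placed on these sequences.

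Values are log2 ratios of Ring1B immunoprecipitate over input, centred on the median of each array, so that 0 is the level of a typical probe. Each promoter is summarised by the window of 3 neighbouring probes within 2000 bp that has the highest mean over both genotypes. The SD beside a window is that over its 3 probes. A window of at least 1 counted as bound, and a bound promoter counted as lower or higher if it differed by at least 1, or 2-fold, with all 3 probes on the same side. Ratios of different promoters come from different probes, so the order of levels is a description. Immunoprecipitate signal was well above background at all 140 SoxB probes in both genotypes, and 0 of them were saturated.

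Some facts of the arrays touch every comparison below. Phc2 L307R and wild-type arrays have different scan days, so scan day and genotype cannot be told apart. Input was well above background at 75.0% and 76.3% of all probes in Phc2 L307R and at 85.7% and 86.7% in wild type. The authors' deposited value tables match the scanner ratios of the Phc2 L307R arrays (r = 0.999 on both designs) but differ from those of the wild-type arrays (r = 0.854 and 0.890). There are thus 2 sets of wild-type values, and both are given. The comparisons with either set share the Phc2 L307R arrays. Values are from the scanner files unless the value tables are named. Arrays of DNA cannot check the cell type by its RNA, but 15 and 14 of 16 promoters of fibroblast marker genes were bound in Phc2 L307R and wild type, so genes known to be active in fibroblasts also reach 1 on this scale. Of these 16 promoters 1 reached 3 in each genotype. Over all promoters 39.3% were bound in Phc2 L307R and 45.4% in wild type, and 1.44% and 1.58% reached 3.

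All 4 SoxB promoters were bound in both genotypes, and 0 of them differed by the 2-fold rule. Sox2 stood at 6.49 in Phc2 L307R and 5.89 in wild type. Sox21 stood at 5.37 in Phc2 L307R and 5.29 in wild type. These were levels that few promoters reached, and Sox3 (3.38 in Phc2 L307R, 3.63 in wild type) and Sox1 (3.28 in Phc2 L307R, 2.96 in wild type) followed well below. Over all promoters 39.3% were bound in Phc2 L307R and 45.4% in wild type. A level of 3 was reached by 1.44% in Phc2 L307R and by 1.58% in wild type. In Phc2 L307R all 4 SoxB promoters reached 3, whereas in wild type Sox1, at 2.96, fell just short of it. That contrast rests on 1 Sox1 probe whose input was not well above background in either genotype. With only probes well above background, and also after normexp, 2 SoxB promoters reached 3 in each genotype. In the value tables all 4 did in both. Among 8997 promoters bound in either genotype, 3.01% were lower and 1.64% higher in Phc2 L307R, so a count of 0 among 4 is near the background. Of the 341 promoters at or above 3 in either genotype, 17.3% were lower and 3.81% higher. The median difference of the SoxB promoters was 0.20, against -0.14 over all bound promoters and -0.30 over those 341 promoters. The SoxB median changed sign with the processing. It was 0.40 after loess, but -0.17 after normexp, -0.16 with 1 common spread of the arrays, -0.03 with only probes well above background and -0.06 over all probes of a promoter.

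**Figure D1:**
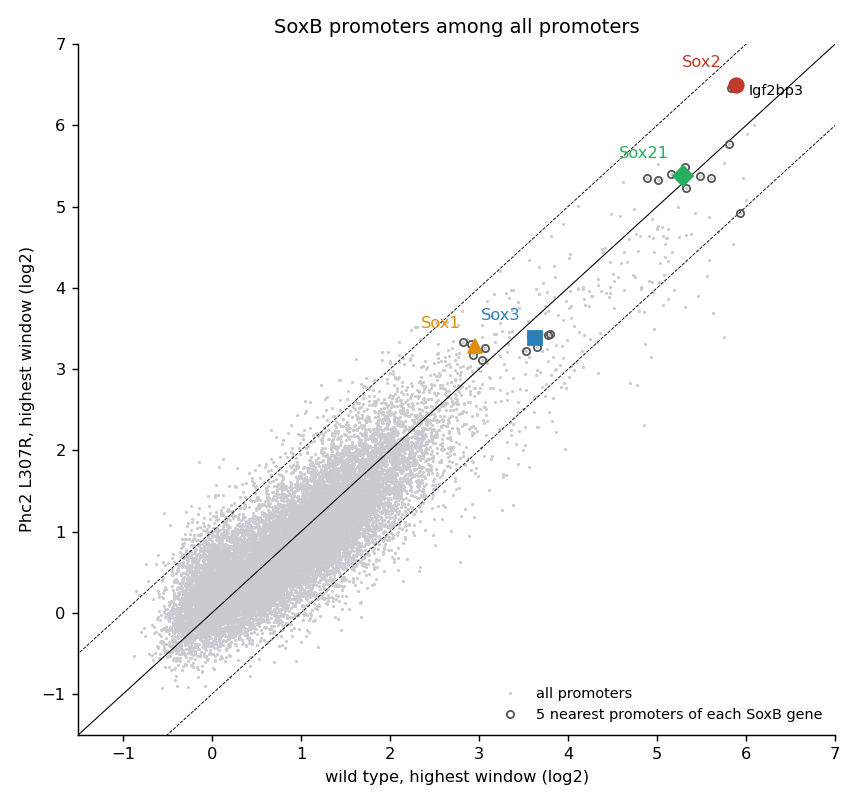
Highest windows of all 17649 promoters, with Phc2 L307R on the vertical axis and wild type on the horizontal axis (log2 ratio of Ring1B immunoprecipitate over input). The solid line marks equal values and the dashed lines a 2-fold difference. Sox2 (6.49 in Phc2 L307R, 5.89 in wild type) and Sox21 (5.37 in Phc2 L307R, 5.29 in wild type) lie at the upper end with the open circles of their nearest promoters, and all 4 SoxB genes lie between the dashed lines.

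Against wild type from the value tables, the differences were of another size and partly of another sign. All 4 SoxB windows were then below wild type, with a median difference of -1.13, and 2 of them, Sox3 and Sox21, were lower by the 2-fold rule. In that comparison 8.24% of 8885 bound promoters were lower and 0.585% were higher. Among 575 promoters at or above 3 in either genotype, 73.7% were lower, and the median difference was -1.51. A count of 2 among 4 SoxB genes is thus not above the share of promoters of like level. Which of the 2 sets describes the wild-type cells was not tested.

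At Sox2, the core pluripotency factor, the highest window lay at chr3:34843400-34843977. Its 3 probes read 6.46, 6.54 and 6.47 in Phc2 L307R, against 5.83, 5.93 and 5.90 in wild type. All 3 probes were higher in Phc2 L307R, and the ranges did not overlap. The window mean was 6.49 (SD 0.0439) in Phc2 L307R and 5.89 (SD 0.0476) in wild type, a difference of 0.60 (SD 0.0289). This is below the 2-fold rule, and a rule of 1.5-fold, which 6.38% of bound promoters met in this direction, would count Sox2 as higher. The difference was larger than its spread over the 3 probes, but neighbouring probes of the same arrays do not replicate a genotype. It was also more than 0.246, the SD that noise between successive probes gives a window difference on array design 1. That SD takes the probes as independent. It leaves out error that neighbours share and any difference between cultures, preparations or scans. Sox2 was the highest of all 17649 promoters in Phc2 L307R and rank 6 in wild type. Of the 341 promoters at or above 3 in either genotype, 43 had a difference further above 0 than Sox2. The value tables gave 6.48 in Phc2 L307R and 7.20 in wild type, a difference of -0.71 (SD 0.33), and Sox2 was there the highest promoter in both genotypes. The direction of the Sox2 window difference therefore depends on the set of wild-type values, while its place among the highest promoters does not.

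The spot intensities behind that window were as follows, with no scaling between arrays. Immunoprecipitate intensities at the 3 probes were 106226, 143478 and 122712 in Phc2 L307R, against 69360, 110321 and 86410 in wild type. Input intensities were 1265, 1617 and 1454 in Phc2 L307R, against 1309, 1951 and 1561 in wild type. The immunoprecipitate was brighter and the input somewhat dimmer in Phc2 L307R at each of the 3 probes, and input was well above background at all of them. The arrays were not scaled to each other here, so the part of each channel in the ratio was not tested.

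Ring1B covered the whole Sox2 stretch on the array. The 38 probes span 7835 bp, chr3:34836314-34844148, and all 38 were at or above 1 in both genotypes. Of 6677 promoters with at least 30 probes, only 0.105% had every probe at or above 1 in both genotypes. At a level of 2 there were 36 of 38 probes in Phc2 L307R and 33 in wild type, and at a level of 3 there were 14 in Phc2 L307R and 15 in wild type. The probes ran between 1.01 and 6.54 with a median of 2.67 in Phc2 L307R, and between 1.34 and 5.93 with a median of 2.80 in wild type. From the first to the last probe at or above 3 was 7553 bp in Phc2 L307R and 6706 bp in wild type. Since all probes reached 1, the array does not show how wide the domain is in either genotype. The highest window lies at the end of the covered stretch, where the last probe still read 5.95 in Phc2 L307R and 5.75 in wild type, so how far the peak continues was not measured.

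By its mean, Sox2 was higher in Phc2 L307R mostly at this end, although single probes elsewhere, such as the probe of 1.11 at the opposite end, were also higher. Split along the chromosome into 4 stretches, the first 3, of 9 or 10 probes each, had mean differences of -0.04 (SD 0.75), -0.13 (SD 0.54) and -0.09 (SD 0.39). The last stretch of 9 probes averaged 5.19 in Phc2 L307R and 4.65 in wild type, a difference of 0.54 (SD 0.31), with 8 of 9 probes higher. Over the 35 probes outside the window the mean difference was 0.01 (SD 0.58), and over all 38 probes 20 were higher and 18 lower. The window thus stood 0.59 above the rest of the promoter in its difference, a contrast chosen after the values were seen. The value tables gave the same contrast as 0.44, although all 38 probes were below wild type there and the rest of the promoter lay at -1.16. Among promoters at or above 3 with at least 30 probes, 36 of 287 had a contrast at least that of Sox2, against a median of -0.03. In the value tables it was 23 of 467, against a median of -0.57.

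**Figure D2:**
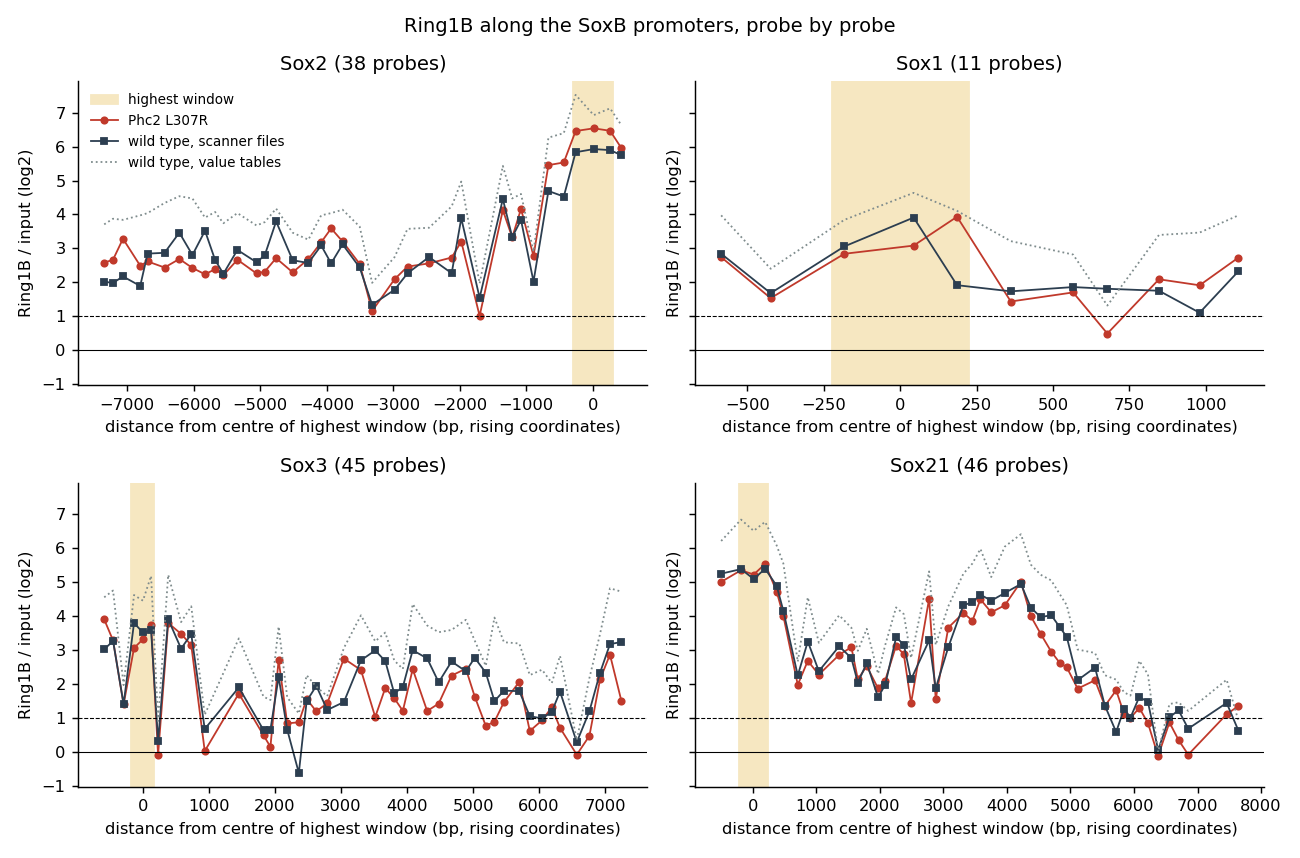
Ring1B at each SoxB probe, as log2 ratio of immunoprecipitate over input, by distance from the centre of the highest window (bp, in rising chromosome coordinates). Red circles are Phc2 L307R, dark squares wild type from the scanner files and the dotted line wild type from the value tables, the dashed line marks 1 and shading marks the highest window. All 38 Sox2 probes lie above the dashed line in both genotypes, and at Sox2 the value-table line lies above the Phc2 L307R circles at every probe.

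Sox21, the SoxB2 gene, was the next highest, with its window at chr14:117117559-117117992. Its 3 probes read 5.36, 5.23 and 5.54 in Phc2 L307R, against 5.39, 5.09 and 5.40 in wild type. The ranges overlapped, with 1 probe lower and 2 higher in Phc2 L307R. The means were 5.37 (SD 0.16) in Phc2 L307R and 5.29 (SD 0.17) in wild type, a difference of 0.08 (SD 0.098). This is within 0.223, the SD that noise between successive probes gives a window difference on array design 2. Sox21 ranked 11 in Phc2 L307R and 26 in wild type. In the value tables wild type stood at 6.72 and the difference was -1.35 (SD 0.14), lower by the 2-fold rule. The sign of this small difference also turned under normexp background correction (-0.50), after the arrays were scaled to 1 common spread (-0.49) and with the mean over all probes (-0.17), so no direction can be given for Sox21.

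The Sox21 profile had several high stretches. Its 46 probes span 8204 bp, of which 40 were at or above 1 in Phc2 L307R and 42 in wild type, and 18 were at or above 3 in Phc2 L307R, against 23 in wild type. Of promoters with at least 30 probes, 1.26% had as large a share of probes at or above 1 in Phc2 L307R and 1.29% in wild type. Besides the window at the low-coordinate end, probes between 3314 and 4376 bp from its centre formed another rise. The highest probe of that rise read 5.01 in Phc2 L307R and 4.95 in wild type. On the far side of this rise, 3 successive probes read 2.95, 2.63 and 2.49 in Phc2 L307R, against 4.03, 3.68 and 3.39 in wild type. The differences at these probes, -1.08, -1.05 and -0.90, were picked out after their values were seen. Input was well above background there in both genotypes. The profiles of the genotypes followed each other closely over the 46 probes (Pearson's r 0.95, a description of neighbouring probes on shared fragments).

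Although the highest window was close to equal, most Sox21 probes were lower in Phc2 L307R. There were 35 lower and 11 higher, or 76.1% lower, against a median of 57.1% over 4093 bound promoters with at least 30 probes. Those promoters are of any bound level, and the share at promoters as high as Sox21 was not computed. Window differences had a median of -0.30 over promoters at or above 3, against -0.14 over all bound promoters. Whether 76.1% is unusual for a promoter of this level was therefore not tested. The median probe difference was -0.23, and over the 38 probes with input well above background in both genotypes it was -0.25, with 32 of 38 lower. By stretches of 9 or 10 probes in rising coordinates, the mean differences were -0.15, 0.08, -0.17, -0.34 and -0.28. Against wild type from the value tables, 45 of 46 probes were lower.

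At Sox3, the SoxB1 gene on the X chromosome, the window at chrX:57151866-57152181 had probes of 3.06, 3.32 and 3.75 in Phc2 L307R, against 3.80, 3.52 and 3.59 in wild type. The ranges overlapped, with 2 of 3 probes lower in Phc2 L307R. The means were 3.38 (SD 0.35) in Phc2 L307R and 3.63 (SD 0.15) in wild type, and the difference of -0.26 (SD 0.45) was smaller than its own SD over the probes. Sox3 ranked 165 in Phc2 L307R and 176 in wild type. The value tables gave 4.76 in wild type and a difference of -1.38 (SD 0.22), lower by the 2-fold rule. Across the settings tried, the Sox3 difference lay between -1.38 and -0.000458, so its size is not fixed by these data.

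Away from its window Sox3 was lower in Phc2 L307R by its mean along the high-coordinate part of the promoter, where most probes had dim input. Its 45 probes span 7882 bp, and 32 of them were at or above 1 in Phc2 L307R, against 37 in wild type. At a level of 2 there were 17 in Phc2 L307R and 22 in wild type. Shares of probes at or above 1 as large as those of Sox3 were found at 2.65% of promoters in Phc2 L307R and 2.13% in wild type. In all 32 probes were lower and 13 higher, or 71.1% lower, where the median over bound promoters with at least 30 probes was 57.1%. As at Sox21, the share at promoters of like level was not computed. The median probe difference was -0.31. Against wild type from the value tables all 45 probes were lower, with a median of -1.38. Along the chromosome, stretches of 9 probes had mean differences of 0.00 (SD 0.47), 0.05 (SD 0.65), -0.41 (SD 0.87), -0.66 (SD 0.66) and -0.53 (SD 0.58). In the last 3 of these stretches 7, 7 and 8 of 9 probes were lower.

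Input at Sox3 was dim, which lowers the precision of its ratios. Input was well above background at 18 of 45 probes in Phc2 L307R and 26 in wild type, while at Sox21 it was so at 38 of 46 in Phc2 L307R and 44 in wild type, and at Sox2 at 32 of 38 in Phc2 L307R and 33 in wild type. Over the 17 Sox3 probes with input well above background in both genotypes, the median difference was -0.32, with 13 lower. These 17 come from the whole promoter, so they are no separate check of its high-coordinate part. Most probes of that part did not have such input in both genotypes. The single largest Sox3 probe difference, -1.96, came from a probe whose input was not well above background in either genotype. The plot of differences at each probe shows how these values scatter along the promoters.

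**Figure D3:**
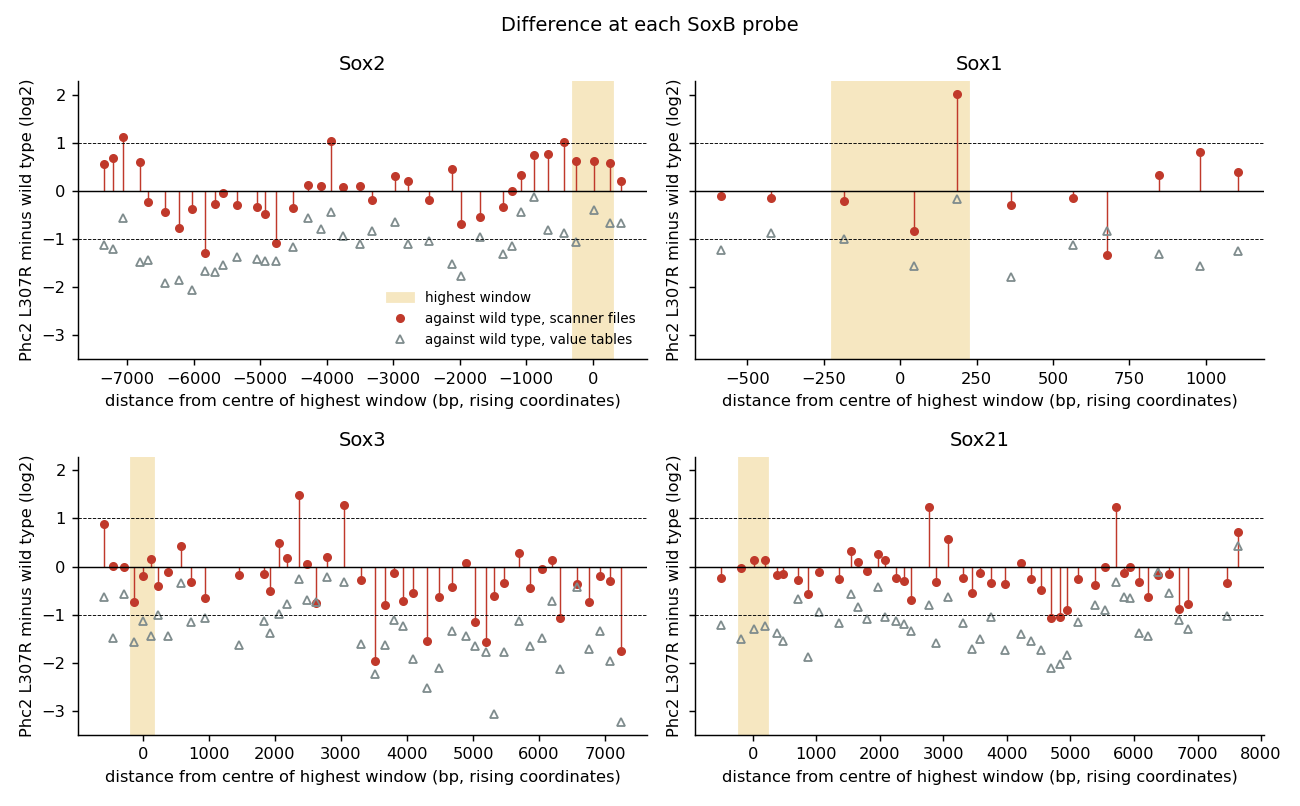
Difference at each SoxB probe, Phc2 L307R minus wild type (log2), by distance from the centre of the highest window (bp). Red circles with stems use wild type from the scanner files, grey triangles wild type from the value tables, and dashed lines mark a 2-fold difference. The red circles run from -1.28 to 1.11 at Sox2 and from -1.96 to 1.495 at Sox3, while nearly all triangles lie below 0.

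Sox1, a SoxB1 gene of the neural plate, had the fewest probes and the least certain value. Its window at chr8:12386868-12387287 had probes of 2.84, 3.08 and 3.93 in Phc2 L307R, against 3.06, 3.91 and 1.91 in wild type. The probes did not move together, since 2 were lower in Phc2 L307R and 1 was higher. The means were 3.28 (SD 0.57) in Phc2 L307R and 2.96 (SD 1.00) in wild type, and the difference of 0.32 had an SD of 1.498. The higher probe, with a difference of 2.02, had input intensities of 134 in Phc2 L307R and 96.8 in wild type, not well above background in either. With only probes well above background the Sox1 difference was -0.15, after normexp it was -0.25 and in the value tables it was -0.91 (SD 0.70). No direction can be given for Sox1.

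Over its 11 probes and 1751 bp, 10 Sox1 probes were at or above 1 in Phc2 L307R and 11 in wild type. Of these probes 4 were higher and 7 lower in Phc2 L307R, and all 11 were lower against wild type from the value tables. Probes next to this stretch were also enriched. The neighbouring name on the array, EG434280, is an older name of Sox1ot in the RefSeq gene table, and its nearest probe lies 213 bp from the first Sox1 probe. Its window stood at 3.67 in Phc2 L307R and 3.88 in wild type, a difference of -0.22 (-1.14 in the value tables). Of its 28 probes 20 were at or above 1 in Phc2 L307R and 19 in wild type, with 12 lower and a median difference of 0.03. Against wild type from the value tables the lower probes numbered 25 of 28, with a median of -1.11. Whether both names lie in 1 continuous domain was not tested.

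The other promoters described next to SoxB genes lay far off and held much less Ring1B. Gpr180 and Abcc4, which flank Sox21, stood at 0.71 and 1.00 in Phc2 L307R and at 0.78 and 1.15 in wild type. Ldoc1, on the high-coordinate side of Sox3, stood at 0.52 in Phc2 L307R and -0.10 in wild type. On the far side of Sox1, 1700094C09Rik stood at 0.14 in Phc2 L307R and -0.16 in wild type. Next to Sox2, Dnajc19 stood at 1.27 in Phc2 L307R and 0.81 in wild type. Atp11b, an aminophospholipid flippase gene 1096505 bp from Sox2, stood at 2.19 in Phc2 L307R and 0.99 in wild type, a difference of 1.20 that met the rule for higher. Of promoters bound in either genotype 1.64% met this rule. In the value tables the Atp11b difference was 0.59 and did not meet it.

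By level, the order was Sox2, Sox21, Sox3 and Sox1 in both genotypes. The gaps between Sox2 and Sox21 and between Sox21 and Sox3 were larger than the SDs over their probes, a description of different probes and not a test. Sox3 and Sox1, at 3.38 (SD 0.35) and 3.28 (SD 0.57) in Phc2 L307R and at 3.63 (SD 0.15) and 2.96 (SD 1.00) in wild type, differed by less than the larger of those SDs in each genotype. Sox2 with Sox1 and Sox21 with Sox3 were read on different arrays, so the order across the designs also holds any difference between those arrays.

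The promoters with the most similar pair of window means (nearest in both genotypes together, among 8912 other promoters on design 1 or 8735 on design 2) differed from gene to gene. Nearest to Sox2 was Igf2bp3, an oncofetal RNA-binding protein gene, at 6.46 in Phc2 L307R and 5.83 in wild type, only 0.0655 log2 units away, and also at -0.73 in the value tables. Others near it were the homeobox genes Lhx8 (5.77 in Phc2 L307R and 5.81 in wild type) and Evx2 and then D830007B15Rik, at distances of 0.73, 1.52 and 1.57. The difference of Evx2 was 0.47. D830007B15Rik stood at 4.92 in Phc2 L307R and 5.93 in wild type, a difference of -1.01 that met the rule for lower. Nearest to Sox21 were Pde10a, Foxd1, Sp8, Foxd4 and Isl1, of which all but the phosphodiesterase gene Pde10a encode transcription factors. Nearest to Sox3 were Nr2f1, Tcf2, Fezf2, Emx2 and Hoxb9, all transcription factor genes. Near Sox1 were Nfia, Tpm4, Cebpa and Pdgfra, among them the tropomyosin gene Tpm4. The likeness rests on 2 values a promoter. In the value tables Nfia, Tpm4 and Cebpa had differences of 0.34 to 0.55 and Pdgfra one of -0.73, against -0.91 for Sox1.

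Within the Sox family Sox2 and Sox21 held the most Ring1B, while Sox3 and Sox1 lay among other high members. Of the 15 other Sox genes searched, 13 were found, with 15 promoters, and Sox10 and Sox13 were not analysed here. Of these promoters 10 were bound in each genotype, and 2 reached 3 in Phc2 L307R, against 3 in wild type. Sox17, an endoderm factor, was the highest of them in Phc2 L307R, at 3.93, against 3.30 in wild type. The cartilage factor Sox9, the highest in wild type, stood at 3.31 in Phc2 L307R and 3.32 in wild type. Sox11, a SoxC gene of neurons, stood at 2.76 in Phc2 L307R and 3.01 in wild type. Sox5 and Sox4 stood next, at 2.17 and 2.14 in Phc2 L307R and at 2.67 and 2.17 in wild type. The promoters of Sox6, Sox7, Sox12, Sox18 and Sox30 lay between 1.15 and 1.75 in Phc2 L307R and between 0.94 and 1.95 in wild type. The rest, Sox8, Sox15, Sry and the promoters shared by Sox18 with Tcea2 and by Sox8 with Tmem112, lay between 0.19 and 0.83 in Phc2 L307R and between -0.27 and 1.07 in wild type. By the 2-fold rule 0 of the 15 were lower and 0 higher, and the median difference was -0.05. Over all bound promoters 3.01% were lower and 1.64% higher, so these counts are near the background. Against wild type from the value tables, Sox5, Sox7 and Sox9 were lower, with 10 promoters bound in each genotype there, and the median was -0.39. Over all bound promoters 8.24% were lower in that comparison.

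**Figure D4:**
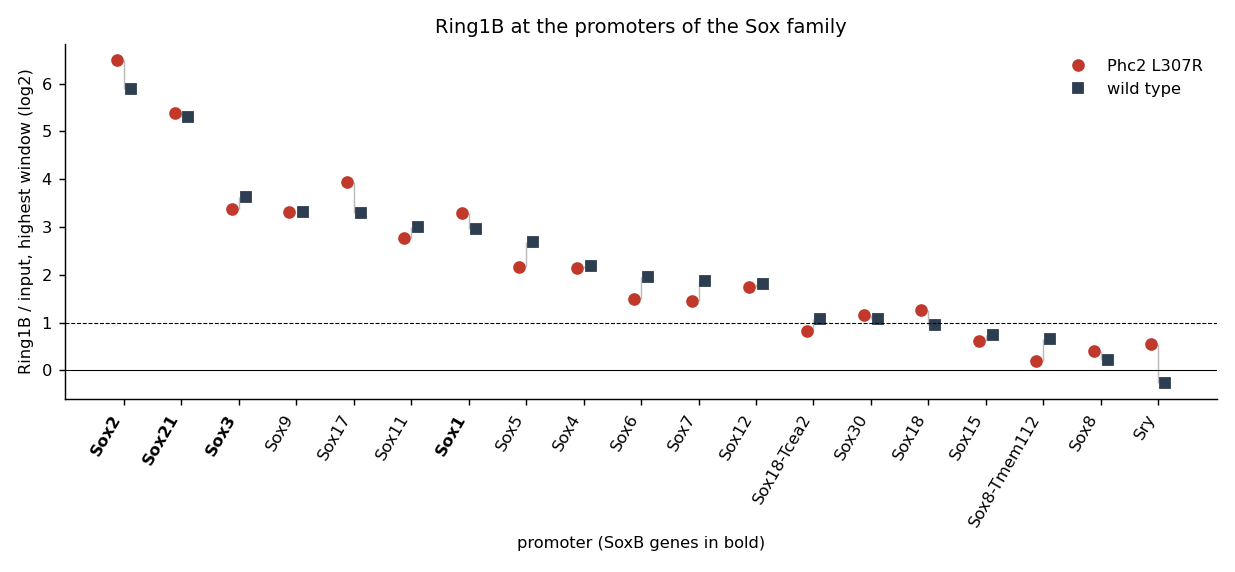
Highest window of each Sox promoter (log2 ratio of Ring1B immunoprecipitate over input), in falling order of wild type, with Phc2 L307R as red circles left of wild type as dark squares. Names of SoxB genes are in bold and the dashed line marks 1. Sox2 and Sox21 stand above 5 in both genotypes, and every other Sox promoter is below 4.

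Pathway partners of the SoxB genes were read from a pair of lists. Of 30 pluripotency genes 27 were found, with 29 promoters, of which 9 were bound in Phc2 L307R and 12 in wild type, shares near the 39.3% and 45.4% of all promoters. Pou5f1, the partner of Sox2 in pluripotent cells, stood at 0.34 in Phc2 L307R and 0.38 in wild type, below the bound level. Among the highest of the list were Foxd3, at 4.85 in Phc2 L307R and 4.95 in wild type, and Sall1, at 4.91 in Phc2 L307R and 4.48 in wild type. Sall4 and Tbx3 stood at 2.78 and 2.37 in Phc2 L307R and at 3.92 and 2.65 in wild type. Sall4, a zinc finger factor of pluripotent cells, was the 1 promoter lower by the 2-fold rule, with a difference of -1.14, and 0 were higher. Over all bound promoters 3.01% were lower. The median difference of the list was 0.02. Against wild type from the value tables the lower promoters numbered 8, and the median was -0.29. Bound in that comparison were 9 promoters of the list in Phc2 L307R and 16 in wild type. Over all promoters 8.24% of the bound and 73.7% of those at or above 3 were lower there. Of the 29 promoters 3 reached 3 in Phc2 L307R and 4 in wild type, and all 29 stood below Sox2 in both genotypes.

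The neural progenitor genes were occupied more widely. Of 46 genes 45 were found, with 47 promoters, of which 44 were bound in each genotype, against 39.3% of all promoters in Phc2 L307R and 45.4% in wild type. A level of 3 was reached by 22 in Phc2 L307R and by 24 in wild type. The 5 highest in wild type were Emx1, Zic2, Nr2e1, Gbx2 and Pax3, all of them transcription factor genes of the neural tube or forebrain. They stood at 3.79, 4.72, 3.98, 4.64 and 4.13 in Phc2 L307R and at 5.07, 5.00, 4.82, 4.81 and 4.75 in wild type. Lower by the 2-fold rule were 3, namely the forebrain factor Emx1 (-1.28), the eye-field factor Rax (-1.12) and Prom1 (-1.76), which encodes a progenitor surface protein, and 0 were higher. Over all promoters 3.01% of the bound and 17.3% of those at or above 3 were lower. The median difference was -0.23 (-1.17 in the value tables, with 31 lower), near the -0.30 (-1.51) of all promoters at or above 3. Lower against wild type from the value tables were 8.24% of all bound promoters and 73.7% of those at or above 3. Sox2 and Sox21 stood above all 5 of these highest members in both genotypes.

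Of the 12 other settings, the 1.5-fold rule and the bound level of 1.5 change only the call and leave a difference as it is, and several others chose the same Sox2 window and left its value unchanged. Sox2 lay below 0 only in the value tables, Sox3 lay below 0 as reported and in each setting, Sox1 lay below 0 under 3 settings and Sox21 under 6. The plot of window differences by setting shows that the value tables moved all 4 SoxB genes furthest down.

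**Figure D5:**
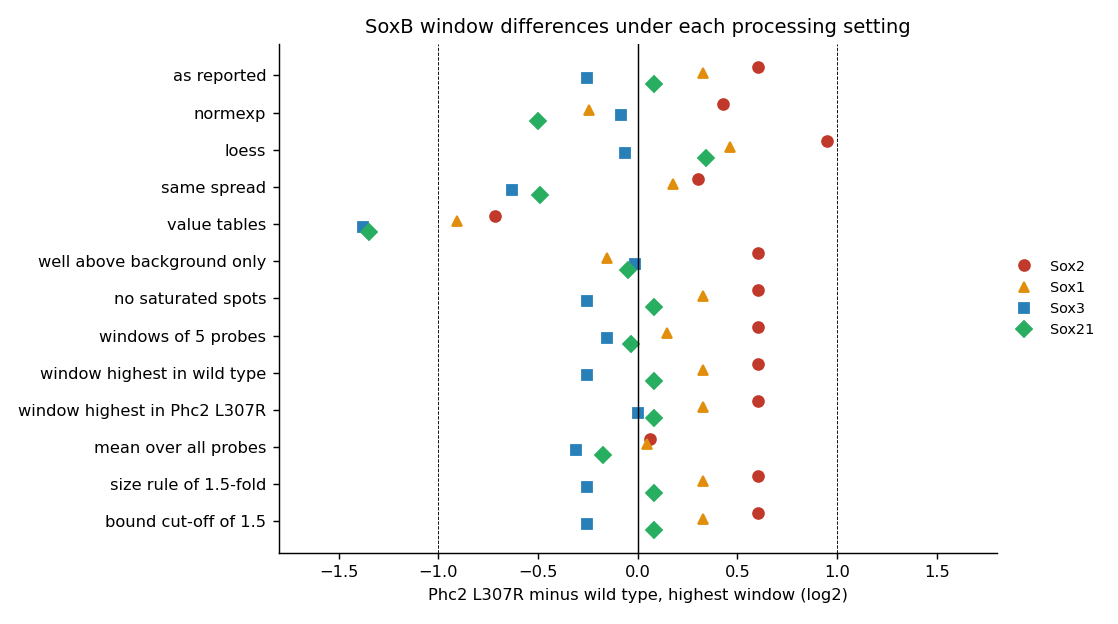
Window difference of each SoxB gene, Phc2 L307R minus wild type (log2), as reported and under 12 other settings, with dashed lines at a 2-fold difference. Sox2 lies between 0.06 and 0.95 except in the value tables (-0.71), Sox3 lies at or below 0 throughout, and Sox1 and Sox21 fall on both sides of 0.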

How the data were processed

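Ring1B ChIP-on-chip of Phc2 L307R and wild-type mouse embryonic fibroblasts was read on 4 two-colour arrays, 1 per genotype on each of 2 designs. Scanner files as deposited give spot intensity values and log10 ratios of Cy5 over Cy3 from Agilent Feature Extraction 10.7.3.1, per the file headers. The authors' value tables are log10 ratios too, which was checked against the scanner ratios, with medians of -0.0342 and -0.0393 in Phc2 L307R and -0.056 and -0.0615 in wild type. The sources used here do not say how the authors made the wild-type tables.

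The log10 ratios were turned into log2 values and centred on each array's median, without control spots and spots with outlier flags. Saturated spots were kept. Windows, the bound level of 1 and the 2-fold rule are as described in the report. Probe noise came from successive probes at most 500 bp apart. The named promoters were the SoxB genes, the 5 nearest to each by window pair, the other Sox genes, the 5 highest bound and up to 3 lower or higher members of each list, and the next promoter on each side; some of these enter the counts and medians but are not reported here. The members, lists and rules were chosen with earlier results of these data known. Matching to RefSeq promoters (build GRCm38.p6) by symbol found 3 of 4 genes. The window step and its size rule were run on simulated data with independent probe noise and planted differences larger than the rule. The other steps were not tested in this way. The number of arrays limits the precision. No column of another sample was used. Calculations used Python 3.11.15, numpy 2.4.6, pandas 2.3.3 and scipy 1.17.1, R 4.3.3 with limma 3.58.1 for normexp (offset 50) and loess (span 0.3), and matplotlib 3.10.9.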

Additional observations from a re-analysis of the deposited data

How the results depend on the processing

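No paired analysis was possible because the title numbers stand for array designs with 0 common probes, so no replicate exists to block on or to leave out. The 2 sets of wild-type values, 1 array per genotype and dim input at Sox1 and Sox3 set the limits of these results, and the cause of each change below was not tested. In the value tables the differences were -0.71 at Sox2, -0.91 at Sox1, -1.38 at Sox3 and -1.35 at Sox21. Loess gave 0.95 at Sox2 and 0.34 at Sox21. Arrays scaled to the same spread gave 0.30 at Sox2, -0.63 at Sox3 and -0.49 at Sox21. Normexp gave -0.25 at Sox1 and -0.50 at Sox21. With only probes well above background the values were -0.15 at Sox1, -0.016 at Sox3 and -0.047 at Sox21. The mean over all probes gave 0.061 at Sox2, 0.045 at Sox1 and -0.17 at Sox21. Windows of 5 probes gave -0.034 at Sox21, and the window highest in Phc2 L307R gave -0.000458 at Sox3. A rule of 1.5-fold made Sox2 (0.60) higher.

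Promoters bound in Phc2 L307R numbered 2254 after normexp, 705 with the mean over all probes, 3279 at a bound level of 1.5 and 3926 with only probes well above background. Those bound in wild type numbered 4040 after normexp, 835 with the mean over all probes and 3886 at a bound level of 1.5. Lower promoters, 271 as reported, numbered 423 with the same spread, 732 in the value tables, 169 with probes well above background, 107 with 5-probe windows, 90 for the window highest in Phc2 L307R and 467 for that in wild type, 12 with the mean over all probes and 1212 by 1.5-fold. Higher promoters, 148 as reported, numbered 11 after normexp, 52 in the value tables, 29 with probes well above background, 46 with 5-probe windows, 295 for the window highest in Phc2 L307R and 32 for that in wild type, 2 with the mean over all probes, 574 by 1.5-fold and 92 at a bound level of 1.5. The median of the other Sox genes was 0.0072 after loess and -0.39 in the value tables. That of the pluripotency genes was -0.17 after normexp and -0.29 in the value tables, and that of the neural progenitor genes -0.46 and -1.17.

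At Sox2, Sox1, Sox3 and Sox21, 14, 2, 8 and 18 probes were at or above 3 in Phc2 L307R, against 15, 2, 10 and 23 in wild type. At Sox1 and Sox3, 6 and 17 were at or above 2 in Phc2 L307R, against 4 and 22 in wild type. After normexp 6 and 15 there were at or above 1 in Phc2 L307R, against 7 and 14 in wild type.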
